A study of Mus musculus with 8 samples.

Results

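Solute carriers are membrane proteins that move ions, sugars, amino acids, nucleotides, vitamins and metals into and out of cells and organelles. The tissue is neonatal bone with a conditional knockout of Slc26a2, which is itself a solute carrier that imports sulfate. A total of 195 genes with solute carrier symbols are described here, 4 of which are named after a carrier without encoding one. They are the genes whose symbol starts with Slc and a digit and that had 1 FPKM or more in at least 4 of the 8 libraries, out of 14457 genes in the table and 12748 that passed the same level. FPKM is the number of fragments per kilobase of transcript, scaled to library size. Of 240 such symbols 202 passed, and 7 were left out by name: Slc26a2, Slc26a11, Slc35b2, Slc35b3, Slc20a1, Slc20a2 and Slc4a1, which handle sulfate, its activated form, phosphate or, in red cells, bicarbonate.

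RNA came from the femoral cortical bone shaft of mice at postnatal day 7. The CKO group, with 4 libraries, had the genotype Col2.3kb-Cre; Slc26a2 fl/fl, and the control group, also with 4 libraries, had Col2.3kb-Cre; Slc26a2 fl/+, so controls carried the same Cre driver and 1 floxed allele. The driver uses a type I collagen promoter fragment active in osteoblasts, and other cells of the shaft are not its target. Nothing in the labels ties each library to a separate animal, so the p-values describe spread among libraries, part of which may be technical. Y-linked transcripts were at 0 in some libraries of each group and present in others, so neither group came from a single animal.

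The families are numbered by sequence and named by what they carry. Amino acid carriers of the plasma membrane feed protein synthesis, which is heavy in bone-forming cells that secrete collagen, and glucose carriers feed glycolysis. Several carriers of family 35 bring nucleotide sugars into the Golgi apparatus and endoplasmic reticulum, where the chains of proteoglycans are built. Family 25 sits in mitochondrial membranes and moves phosphate, ADP and ATP, iron and metabolic intermediates. Families 30 and 39 export and import zinc, an ion that bone mineral and many matrix enzymes contain.

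The upstream sequences of 3 members are shown, Slc43a1 with every CKO library above every control library, Slc2a10 with every CKO library below, and Slc7a8 with the second lowest fold change. They mark both directions of the set and were chosen after their values were seen. Sequences are 5′ to 3′ on the gene's strand, from RefSeq on GRCm38.p6, and stop before the first GENCODE exon of the gene. Capitals mark every match, on either strand, to 4 motifs. The GATA motif is spelled AGATAA. The GC box is spelled GGGCGG. The TATA motif is spelled TATAAA. The metal response motif is spelled TGCGCNC or TGCACNC.
Slc43a1 (chr2:84840073-84840198, plus strand): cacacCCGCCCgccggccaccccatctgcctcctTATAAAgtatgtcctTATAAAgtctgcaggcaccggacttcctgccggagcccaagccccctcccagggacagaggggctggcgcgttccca
Slc2a10 (chr2:165503647-165503786, plus strand): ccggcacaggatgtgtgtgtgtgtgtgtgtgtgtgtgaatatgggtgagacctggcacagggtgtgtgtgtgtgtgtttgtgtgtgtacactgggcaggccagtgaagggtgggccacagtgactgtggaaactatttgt
Slc7a8 (chr14:54781947-54782136, minus strand): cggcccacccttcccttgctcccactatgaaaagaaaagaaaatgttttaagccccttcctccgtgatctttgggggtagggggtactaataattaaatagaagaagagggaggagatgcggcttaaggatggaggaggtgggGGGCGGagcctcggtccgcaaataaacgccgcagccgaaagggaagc
The 126 bases of Slc43a1 held 2 TATA motifs and 1 GC box, the 190 bases of Slc7a8 held 1 GC box, and the 140 bases of Slc2a10 held none of the 4 motifs. RefSeq windows of 250 bases were found for 149 of the 195 members and 27025 genes in all. A GC box was present in 67.1% of the members' windows and 32.9% of all windows, the metal response motif in 30.9% and 21.3%, AGATAA in 5.37% and 10.3%, and the TATA motif in 4.03% and 12.97%. The windows in all were not limited to the 12748 genes tested, whereas every member had passed the FPKM filter. Windows of tested genes alone were not compared, so these differences cannot be assigned to solute carriers. Among members whose groups did not overlap, windows were available for 12 lower and 5 higher ones. The metal response motif was found in 3 of the lower and 0 of the higher ones, and the GC box in 6 and 5. The TATA motif was found in 0 and 1, and AGATAA in 1 and 0. A match describes the letters in the window and was not tested as a site.

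The libraries differed in more than genotype. The targeted gene Slc26a2 had 2.93, 2.08, 0.706 and 0.8289 FPKM in CKO libraries 1 to 4, against 4.37, 7.49, 4.85 and 4.85 FPKM in control libraries 1 to 4, a log2 fold change of -1.34 with a limma adjusted p of 0.0412. FPKM summed to 431600 to 598400 in CKO and 352300 to 379700 in control, with the highest sums in CKO libraries 3 and 4. CKO library 4 stood apart, with 155 genes at 0 FPKM against 5 to 31 elsewhere. Transcripts of 4 Y-linked genes were listed at 0 in CKO libraries 1 to 3 and control library 1, and summed to 17.5 FPKM in CKO library 4 and 37.4 to 42.2 FPKM in control libraries 2 to 4. Osteoblast markers summed to 11380 to 35500 FPKM in CKO and 36010 to 44760 FPKM in control, erythroid markers to 12670 to 56020 and 3074 to 10440, neutrophil markers to 6502 to 28450 and 921 to 4278, and skeletal muscle markers to 152 to 9244 and 57.4 to 3448. Endothelial markers summed to 168 to 215 FPKM in CKO and 246 to 315 FPKM in control, with 8 of 10 below 0, and B lineage markers to 211 to 549 FPKM and 77.0 to 458 FPKM, with 10 of 12 above 0. Of these lists 1 of 13 osteoblast genes fell, 4 of 15 erythroid and 3 of 15 neutrophil genes rose, 0 of 15 muscle, 0 of 10 endothelial and 0 of 12 B lineage genes were called, and no gene was at 0 in all libraries. In bulk tissue, fewer cells of a type and less RNA per cell cannot be told apart.

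Few solute carriers passed the test, and more members had a fold change below 0 than above it. Of 195 members 2 rose (Slc38a5 and Slc6a13, of which Slc6a13 passed the filter only through its CKO values and had to differ), 1 fell (Slc39a14) and 192 did not pass, by limma on log2(FPKM + 1) with p-values adjusted by the Benjamini-Hochberg method over all 12748 genes at a threshold of 0.05. That is 1.54% of members, against 4.53% of all genes tested (3.88% higher and 0.651% lower). With quantile normalization limma called 137 genes higher and 221 lower, against 495 and 83 with FPKM unscaled. It then called 2 members in each direction. At an unadjusted p under 0.05, 8 members were higher and 29 lower, or 4.10% and 14.9%, against 15.9% and 9.45% of all genes. The CKO and control values did not overlap in 24 members, with 18 lower and 6 higher in CKO. The lower ones were 9.23% of members against 6.0% of all genes, and the higher ones 3.08% of members against 12.7% of all genes.

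A log2 fold change below 0 was found in 126 of 195 members (64.6%), against 48.9% of all genes, and the member median was -0.18 against 0.01 for all genes. Across the 21 other settings the member median was 0.11 to 0.26 below that of all genes, while the members' own median ranged from -0.54 to 0.02. With equal totals 175 members were below 0, with a median of all genes of -0.37. The lowest of the 8 values was in CKO library 3 or 4 for 142 of 195 members. Members below 0 numbered 127 without CKO library 3, 113 without CKO library 4 and 92 without both. Without both, the median was 0.02 for members and 0.16 for all genes, a difference of -0.14, against -0.19 with all libraries. Within the libraries with Y-linked transcripts (1 CKO, 3 control) the member median was -0.50, with 147 below 0. Within those without them (3 CKO, 1 control) it was 0.05, with 86 below 0. The only CKO library with Y-linked transcripts was CKO library 4, which had 155 genes at 0 FPKM. All genes were not summarized within these splits, so neither value can be assigned to solute carriers. The part of these libraries' other differences in the lean was not tested.

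**Figure D1:**
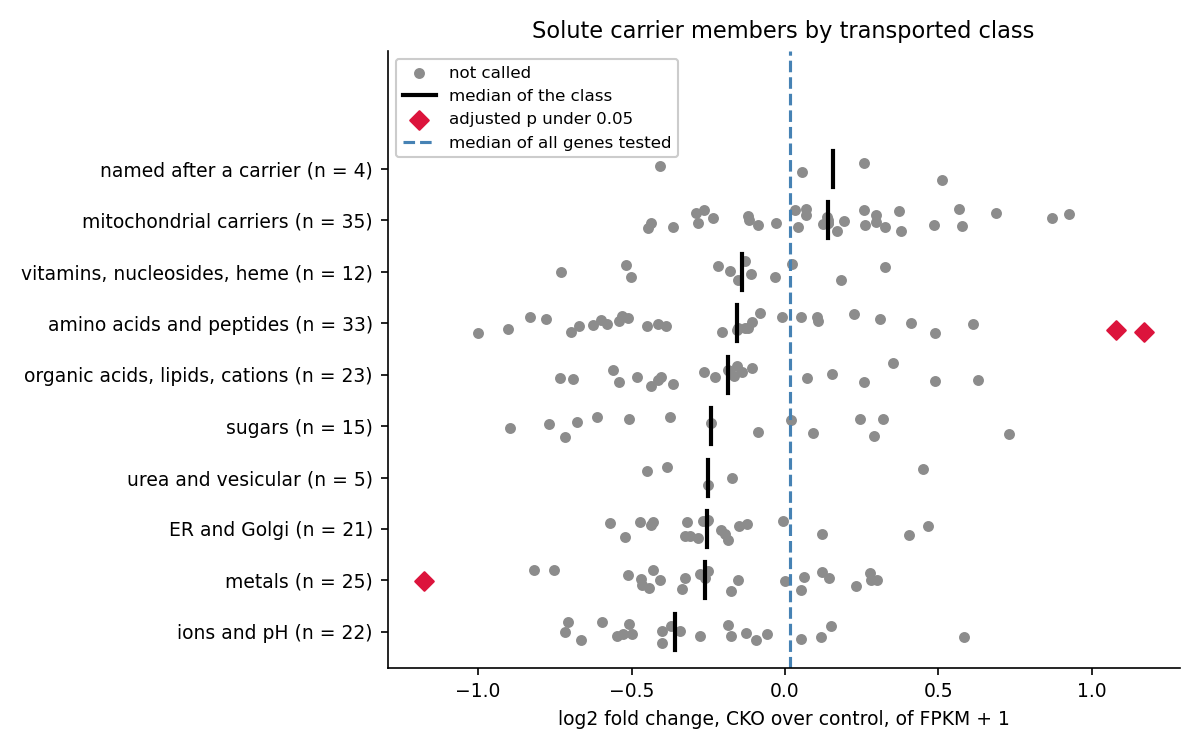
Log2 fold change of each of the 195 members (x axis, CKO over control, FPKM + 1), with 1 row per transported class. Black bars are class medians and the dashed line is the median of all genes tested (0.01). Mitochondrial carriers sit around a median of 0.14 and ion and pH carriers around -0.36, and the 3 called members (red diamonds) lie at the far ends.

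Slc39a14 (ZIP14, ENSMUSG00000022094, GRCm38 chromosome 14, 70303469 to 70351425) brings zinc, manganese and iron into the cell, and was the member that fell. It had 9.54, 8.42, 4.900 and 6.47 FPKM in CKO libraries 1 to 4, against 18.3, 16.9, 18.9 and 15.7 FPKM in control libraries 1 to 4. The groups did not overlap, and the highest CKO value lay well below the lowest control value. The means were 7.33 ± 2.06 FPKM in CKO and 17.4 ± 1.44 FPKM in control (SD, n = 4 each), and the log2 fold change -1.18 with an SE of 0.22 and a limma adjusted p of 0.0388. The direction was the same in all 21 other settings. It was -1.28 within the libraries with Y-linked transcripts and -1.21 within those without, each with 1 library in an arm and so no replicate check there. The call held in 9 of the 21 settings, and without 1 library at a time the adjusted p lay between 0.0264 and 0.165.

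Slc38a5 (SNAT5, ENSMUSG00000031170, GRCm38 chromosome X, 8271133 to 8280179) couples the uptake of glutamine and other neutral amino acids to sodium, and rose. It had 18.7, 13.6, 14.2 and 15.3 FPKM in CKO libraries 1 to 4, against 8.28, 8.38, 7.31 and 3.96 FPKM in control libraries 1 to 4. Every CKO library was above every control library, and control library 4 was the lowest of all. The means were 15.4 ± 2.31 FPKM in CKO and 6.98 ± 2.07 FPKM in control (SD, n = 4 each), a log2 fold change of 1.08 with an SE of 0.24 and a limma adjusted p of 0.0435. Within the libraries with Y-linked transcripts the log2 fold change was 1.16, and within those without them 0.82, again with 1 library in an arm of each. Its call held in 8 of 21 settings. With the mean of the erythroid, neutrophil and B lineage markers as a covariate its log2 fold change was 0.59. With FPKM scaled to equal totals it was 0.65, against 1.08 by limma with neither.

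Slc6a13 (GAT2, ENSMUSG00000030108, GRCm38 chromosome 6, 121300227 to 121337733) carries GABA and taurine, and rose at a low level. It had 1.19, 2.55, 3.48 and 1.55 FPKM in CKO libraries 1 to 4, against 0.723, 0.344, 0.397 and 0.0745 FPKM in control libraries 1 to 4. All 4 control values lay below 1 FPKM, and it was the only member that entered the set through its CKO values alone. The log2 difference was 1.17 (SE 0.25, limma adjusted p = 0.0408), a scale on which low values understate a change. The call held in 8 of 20 settings, and without 1 library at a time the limma adjusted p lay between 0.0285 and 0.165. Because the filter fixed its direction, these values are no independent check of the call. Its level was highest in CKO library 3, the library in which the neutrophil markers were highest, and that part was not tested.

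**Figure D2:**
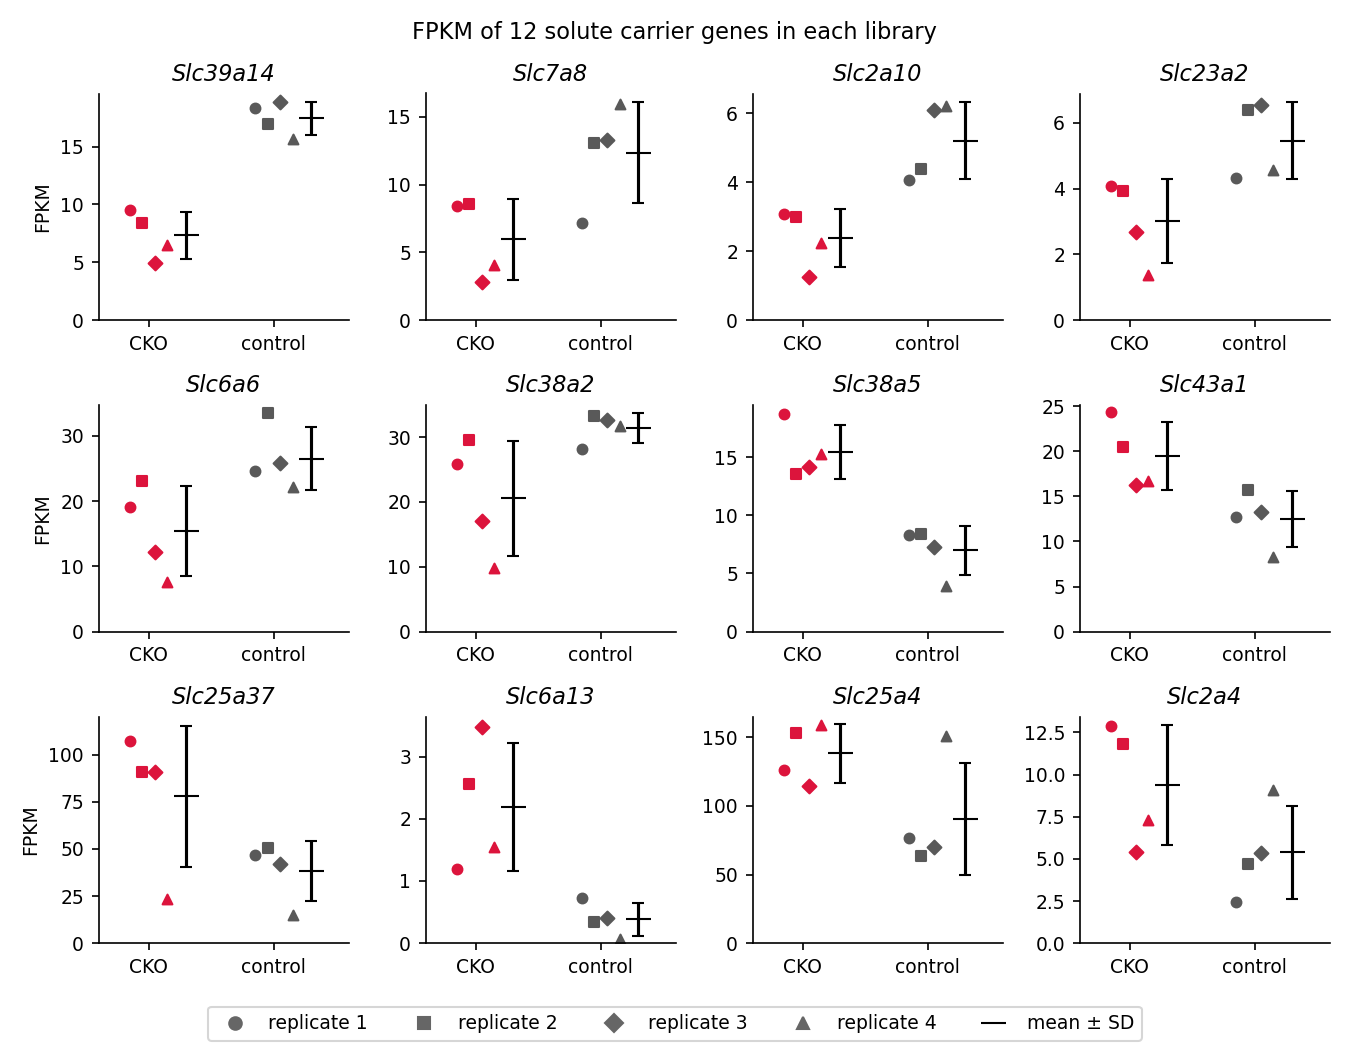
FPKM (y axis, linear from 0) of 12 members in each of the 4 CKO (red) and 4 control (grey) libraries, with the mean and SD of each group beside the points. Marker shapes give the replicate number. Slc39a14, Slc2a10 and Slc23a2 are lower in every CKO library and Slc38a5, Slc43a1 and Slc6a13 higher, while Slc25a4 and Slc2a4 have their highest control value in library 4.

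Amino acid and peptide carriers, placed by family number, held 33 members. Of these 2 rose, Slc6a13 among them, none fell and 31 did not pass. Log2 fold changes were below 0 in 23 of them, with a median of -0.16. The median was 0.04 with the length trend removed and 0.02 without CKO libraries 3 and 4. CKO library totals of the class were 483, 473, 338 and 356 FPKM, against 442, 504, 456 and 443 FPKM in control libraries 1 to 4. CKO libraries 3 and 4 were the lowest, and the other CKO libraries lay within the control range.

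Slc7a8 (LAT2), the light chain of a neutral amino acid exchanger, had the second lowest fold change of all members. It had 8.45, 8.58, 2.81 and 4.06 FPKM in CKO libraries 1 to 4, against 7.18, 13.1, 13.3 and 15.9 FPKM in control libraries 1 to 4. Control library 1 lay below CKO libraries 1 and 2, so the groups overlapped (log2 fold change -1.0, SE 0.35, limma adjusted p = 0.111). The size depended on CKO libraries 3 and 4, without which the log2 fold change was -0.44. Slc3a2, its partner heavy chain, and Slc7a5 were chosen after their values were seen. Slc3a2 averaged 43.8 FPKM in CKO and 40.1 FPKM in control, with a log2 fold change of 0.11. Slc7a5 (LAT1), the other main light chain of that partner, averaged 17.2 FPKM in CKO and 18.1 FPKM in control (log2 fold change -0.08). The difference between these fold changes was not tested.

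The most abundant members of family 6 were not called. Slc6a6, which imports taurine, had 19.04, 23.1, 12.3 and 7.55 FPKM in CKO libraries 1 to 4, against 24.6, 33.4, 25.9 and 22.1 FPKM in control libraries 1 to 4, and CKO library 2 reached into the control range (log2 fold change -0.83, limma adjusted p = 0.132). Slc6a8, the creatine carrier and the most abundant of its family, had 23.2, 22.8, 18.6 and 19.3 FPKM in CKO libraries 1 to 4, against 20.8, 42.8, 30.6 and 39.2 FPKM in control libraries 1 to 4 (log2 fold change -0.60). Both groups of Slc6a8 overlapped through control library 1. Within family 6 the log2 fold changes ran from -0.83 to 1.17, with 3 members above and 3 below 0.

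Sodium-coupled neutral amino acid carriers of family 38 were below 0 in 7 of 8 members, with Slc38a5 as the exception. Slc38a2 (SNAT2), induced in many cells when amino acids are short, had 25.9, 29.5, 17.04 and 9.76 FPKM in CKO libraries 1 to 4, against 28.1, 33.3, 32.6 and 31.8 FPKM in control libraries 1 to 4. CKO libraries 3 and 4 were far below all controls and CKO library 2 was inside their range (log2 fold change -0.70, limma adjusted p = 0.186). The log2 fold change was -0.40 without CKO library 4 and -0.18 without CKO libraries 3 and 4. Slc38a10 was the most abundant member of the family at 46.97 ± 7.74 FPKM in CKO and 53.9 ± 4.88 FPKM in control (SD, n = 4 each), with a log2 fold change of -0.21. Slc36a1, a proton-coupled carrier of small amino acids, had every CKO library below every control library, at 2.54 to 4.75 FPKM in CKO and 5.47 to 6.21 FPKM in control (log2 fold change -0.54, limma adjusted p = 0.149).

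Slc43a1 (LAT3), a facilitated carrier of branched-chain amino acids, stood on the other side. It had 24.3, 20.5, 16.2 and 16.7 FPKM in CKO libraries 1 to 4, against 12.7, 15.7, 13.3 and 8.25 FPKM in control libraries 1 to 4. The groups did not overlap, but the lowest CKO and highest control values were close (log2 fold change 0.61, SE 0.23, limma adjusted p = 0.135). With the marrow markers as a covariate its log2 fold change was 0.20. Slc66a2 also had groups apart, at 20.4 to 27.6 FPKM in CKO and 15.7 to 18.8 FPKM in control (log2 fold change 0.41, limma adjusted p = 0.195), and with FPKM scaled to equal totals its value was -0.04. Slc1a5, the glutamine carrier ASCT2, and Slc7a1, which carries arginine and lysine, were chosen after their values were seen. Slc1a5 averaged 43.8 FPKM in CKO and 36.95 FPKM in control (log2 fold change 0.23, limma adjusted p = 0.633), and Slc7a1 averaged 5.94 FPKM in CKO and 7.65 FPKM in control (-0.39, limma adjusted p = 0.421). Slc7a2, another carrier of arginine and lysine, also chosen after its values were seen, ranged over 0.803 to 3.005 FPKM in CKO and 2.05 to 5.09 FPKM in control (log2 fold change -0.90, limma adjusted p = 0.103).

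None of the 15 members placed by family number as sugar carriers passed. Of these, 4 had every CKO library below every control library (26.7% of the class, against 6.0% of all genes). Slc2a10 (GLUT10), whose loss in humans causes arterial tortuosity, had 3.07, 2.98, 1.24 and 2.23 FPKM in CKO libraries 1 to 4, against 4.08, 4.396, 6.11 and 6.22 FPKM in control libraries 1 to 4. CKO values were lower in all 4 libraries and lowest in library 3 (log2 fold change -0.90, SE 0.25, limma adjusted p = 0.0616). Slc2a1 (GLUT1), the basal glucose importer of many cells including osteoblasts, had 3.57, 3.93, 3.296 and 1.59 FPKM in CKO libraries 1 to 4, against 6.28, 5.198, 4.21 and 4.86 FPKM in control libraries 1 to 4. The groups were narrowly apart, and the log2 fold change was -0.61 with a limma adjusted p of 0.148. Slc45a3 was apart as well, at 2.05 to 3.76 FPKM in CKO and 4.55 to 5.92 FPKM in control (log2 fold change -0.72, limma adjusted p = 0.0752).

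Slc2a4 and Slc2a3 had higher means in CKO, though with equal totals Slc2a3 was at -0.13. Slc2a4 (GLUT4), the insulin-regulated carrier of muscle and fat, had 12.9, 11.8, 5.43 and 7.32 FPKM in CKO libraries 1 to 4, against 2.43, 4.72, 5.37 and 9.05 FPKM in control libraries 1 to 4. The groups overlapped, with control library 4 above CKO libraries 3 and 4 (log2 fold change 0.73, limma adjusted p = 0.229). Skeletal muscle markers summed to 2078, 3168, 152 and 9244 FPKM in CKO libraries 1 to 4, against 57.4, 192, 1296 and 3448 FPKM in control libraries 1 to 4, with 0 of 15 called and 15 of 15 above 0. With the muscle markers as a covariate its log2 fold change was 0.43. Slc2a3 (GLUT3), the most abundant of the family, had 11.5, 24.3, 10.5 and 4.43 FPKM in CKO libraries 1 to 4, against 8.73, 15.7, 8.82 and 4.54 FPKM in control libraries 1 to 4, a spread within each group that exceeded the difference between them (log2 fold change 0.29). Slc37a2, a sugar-phosphate exchanger abundant in macrophages and osteoclasts and chosen after its values were seen, had 27.4, 34.9, 20.6 and 28.5 FPKM in CKO libraries 1 to 4, against 30.4, 59.8, 38.8 and 54.95 FPKM in control libraries 1 to 4. CKO library 2 lay above control library 1, so the groups overlapped (log2 fold change -0.68, limma adjusted p = 0.136). Osteoclast markers summed to 4477 to 5109 FPKM in CKO and 4141 to 6698 FPKM in control, with 0 of 10 called. By gene, 8 of 10 were below 0, with a median of -0.54 and 5 lower at an unadjusted p under 0.05, and their part in Slc37a2 was not tested.

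Ion and pH carriers had the lowest class median, at -0.36, and none of 22 passed. A log2 fold change below 0 was found in 18 of them. The rank and sign depended on the setting. With the length trend removed the median was 0.01, or -0.04 relative to all genes, and sugar carriers were lowest, at -0.30. Amino acid carriers were lowest with quantile normalization (-0.36) and with the marrow covariate (-0.44). All 5 potassium-chloride and related cotransporters of family 12 were below 0, of which Slc12a9 was at 0.02 with the length trend removed. Among them Slc12a7 (KCC4) had 5.604, 7.503, 3.15 and 8.09 FPKM in CKO libraries 1 to 4, against 7.72, 12.1, 9.33 and 11.8 FPKM in control libraries 1 to 4, with CKO library 4 above control library 1 (log2 fold change -0.71, limma adjusted p = 0.144). Slc12a4 (KCC1), the most abundant, averaged 17.4 ± 6.34 FPKM in CKO and 24.6 ± 2.605 FPKM in control (SD, n = 4 each), and Slc12a9 5.76 ± 3.04 FPKM in CKO and 5.73 ± 0.922 FPKM in control (SD, n = 4 each).

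Carriers known from osteoclasts were also in this class. Slc9b2 (NHA2), a sodium/proton exchanger of osteoclasts and the most abundant of family 9, had 16.2, 19.5, 32.5 and 18.8 FPKM in CKO libraries 1 to 4, against 15.99, 29.98, 16.5 and 28.7 FPKM in control libraries 1 to 4. Its values overlapped fully (log2 fold change -0.06, limma adjusted p = 0.923). Slc4a2 (AE2), the chloride-bicarbonate exchanger of osteoclasts, was chosen after its values were seen and averaged 22.7 ± 4.98 FPKM in CKO and 32.7 ± 6.72 FPKM in control (SD, n = 4 each) (log2 fold change -0.51, limma adjusted p = 0.189). The sums of the 22 members were 154, 167, 115 and 144 FPKM in CKO libraries 1 to 4, against 159, 212, 172 and 191 FPKM in control libraries 1 to 4, so CKO library 2 lay above control library 1.

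Metal carriers held 25 members, of which Slc39a14 fell, none rose and 24 did not pass. Groups were apart in 5 of these 25, all lower in CKO, against 6.0% of all genes. Of 10 zinc importers of family 39, 7 were below 0, against 48.9% of all genes. The class median stayed below 0 in all 21 other settings. The same held for the organic acid and lipid, the vitamin and nucleoside, and the urea and vesicular classes. Slc39a10, a zinc importer of the plasma membrane, had 4.46, 3.07, 4.72 and 0.588 FPKM in CKO libraries 1 to 4, against 5.14, 5.28, 6.84 and 5.47 FPKM in control libraries 1 to 4. Its CKO library 4 was far below the rest and its log2 fold change was -0.82 (limma adjusted p = 0.1995), or -0.40 without that library. Slc39a1 (ZIP1), among the 8 most abundant members, had 53.9, 58.3, 63.6 and 44.6 FPKM in CKO libraries 1 to 4, against 55.1, 89.7, 73.1 and 82.7 FPKM in control libraries 1 to 4. CKO libraries 1 and 4 were below every control library, and CKO libraries 2 and 3 lay inside the control range (log2 fold change -0.43, limma adjusted p = 0.246).

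Other zinc carriers varied in direction. Slc39a7 (ZIP7), which releases zinc from the endoplasmic reticulum and was the most abundant of its family, had 77.4, 75.2, 48.1 and 147 FPKM in CKO libraries 1 to 4, against 70.1, 63.9, 67.7 and 90.7 FPKM in control libraries 1 to 4. CKO library 4 held the highest and CKO library 3 the lowest value (log2 fold change 0.14). The sign turned with equal totals, to -0.32, and without CKO library 4, to -0.14. Slc39a13 (ZIP13), whose loss in humans causes a connective tissue disorder, was chosen after its values were seen and averaged 32.99 ± 13.03 FPKM in CKO and 40.6 ± 11.2 FPKM in control (SD, n = 4 each) (log2 fold change -0.33). Slc39a8 (ZIP8) averaged 7.19 ± 3.603 FPKM in CKO and 5.25 ± 1.01 FPKM in control (SD, n = 4 each). Among zinc exporters, Slc30a5 had 13.4 to 23.2 FPKM in CKO and 17.03 to 21.6 FPKM in control (log2 fold change 0.05), Slc30a7 2.503 to 5.04 FPKM in CKO and 4.19 to 6.55 FPKM in control (-0.51), and Slc30a10, which exports manganese, 1.03 to 1.76 FPKM in CKO and 0.602 to 1.4 FPKM in control (0.30).

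**Figure D3:**
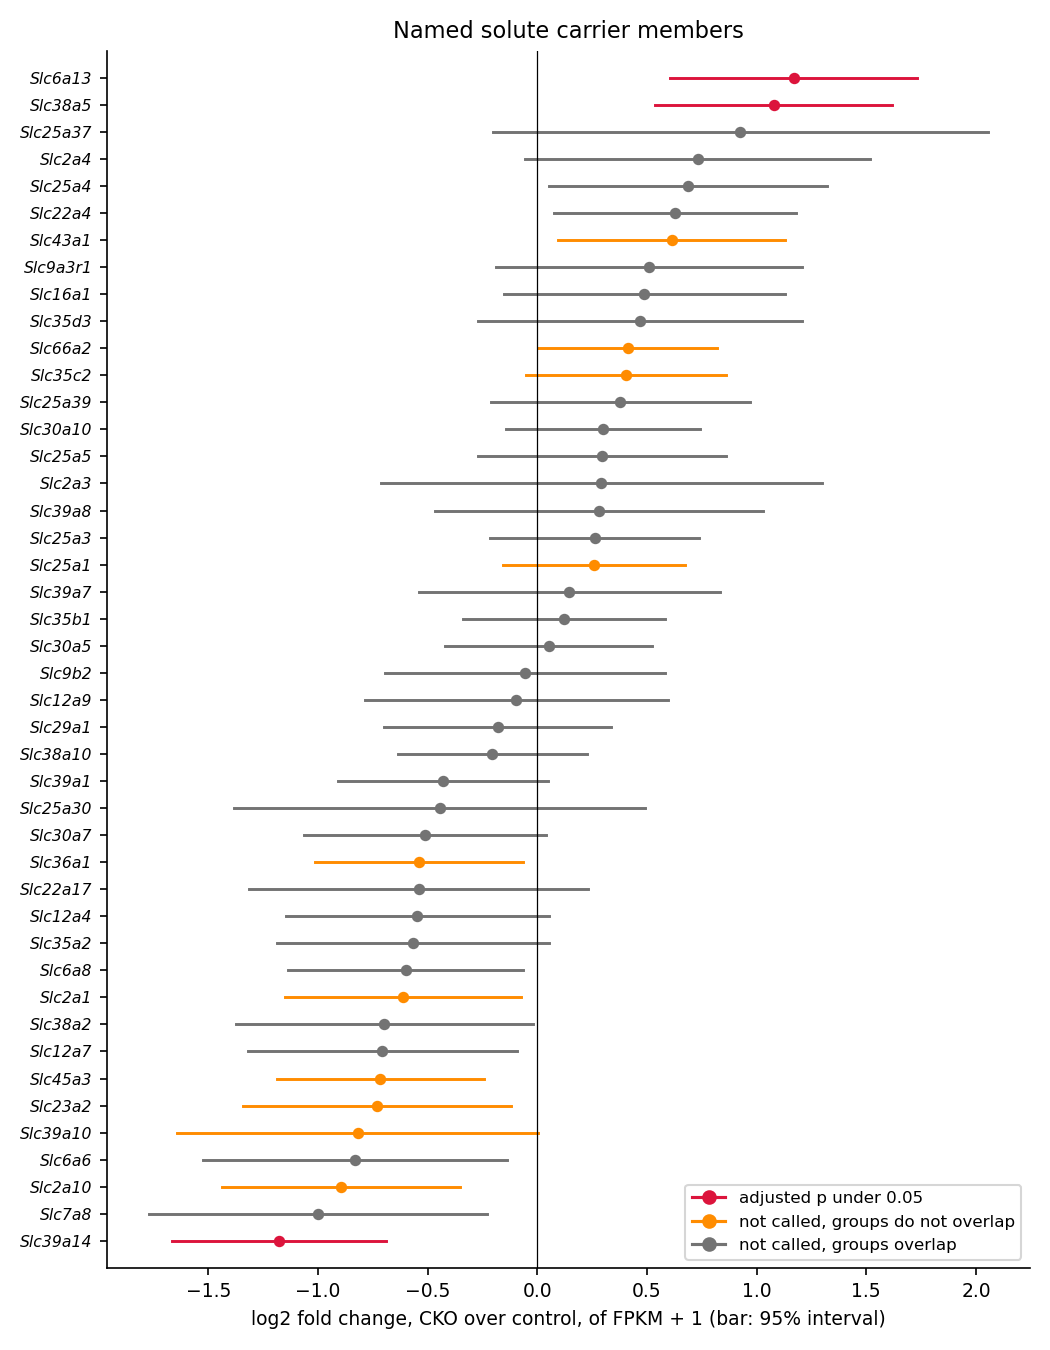
Log2 fold change (CKO over control, FPKM + 1) with its 95% interval from limma for 44 members, sorted by size. Red marks the 3 called members, orange those not called whose groups do not overlap, and grey the rest. Slc39a14 lies lowest, at -1.18, and Slc6a13 highest, at 1.17.

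Mitochondrial carriers were the main class that leaned up: 24 of 35 were above 0, with a median of 0.14, and none passed. Relative to all genes the class median ranged from -0.03 to 0.22 over the 21 other settings, against 0.12 as reported. Their FPKM summed to 1076, 1090, 1105 and 1006 in CKO libraries 1 to 4, against 800, 865, 782 and 902 FPKM in control libraries 1 to 4, so the groups were apart. As a share of all FPKM, whose totals were highest in CKO libraries 3 and 4, the sum was 0.243%, 0.253%, 0.185% and 0.175% in CKO libraries 1 to 4, against 0.215%, 0.245%, 0.220% and 0.238% in control libraries 1 to 4, and the groups overlapped.

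The sum was mostly 3 genes that supply oxidative phosphorylation. Slc25a5 (ANT2), an ADP/ATP exchanger, was the most abundant member at 234 ± 65.97 FPKM in CKO and 186 ± 26.9 FPKM in control (SD, n = 4 each) (log2 fold change 0.30, limma adjusted p = 0.499). Slc25a3, the phosphate carrier, averaged 221 ± 31.4 FPKM in CKO and 185 ± 28.8 FPKM in control (SD, n = 4 each) (0.26, adjusted p = 0.476 by limma). With equal totals Slc25a5 was -0.18 and Slc25a3 -0.21, and with quantile normalization they were -0.40 and -0.43, so both signs turned. Slc25a4 (ANT1), the ADP/ATP exchanger of heart and muscle, had 126, 153, 115 and 159 FPKM in CKO libraries 1 to 4, against 76.5, 63.7, 69.9 and 151 FPKM in control libraries 1 to 4. Control library 4 reached the CKO range, while the other 3 control libraries lay below it (log2 fold change 0.69, limma adjusted p = 0.167).

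The highest fold change of the class was that of Slc25a37. Slc25a37 (mitoferrin 1), which imports iron for heme in red cell precursors, had 107, 90.7, 90.7 and 23.2 FPKM in CKO libraries 1 to 4, against 46.5, 50.5, 41.8 and 15.2 FPKM in control libraries 1 to 4. CKO libraries 1 to 3 were above every control library, and library 4 was lowest in each group (log2 fold change 0.93, SE 0.51, limma adjusted p = 0.283). Without CKO library 4 its log2 fold change was 1.43 with a limma adjusted p of 0.0382, and with the marrow markers as a covariate it was -0.30. Slc25a38, which imports glycine for heme, and Slc25a21, which carries oxodicarboxylates, were chosen after their values were seen and ranged over 10.6 to 28.5 FPKM in CKO and 9.03 to 15.8 FPKM in control (0.58) and 1.253 to 6.51 FPKM in CKO and 1.06 to 2.79 FPKM in control (0.87 on the log2 scale). Slc25a39, which brings glutathione into mitochondria, had 82.2, 67.6, 67.3 and 126 FPKM in CKO libraries 1 to 4, against 45.1, 72.6, 62.7 and 79.3 FPKM in control libraries 1 to 4 (log2 fold change 0.38).

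Red cell markers were also higher in CKO. The erythroid markers summed to 19390, 12670, 18620 and 56020 FPKM in CKO libraries 1 to 4, against 5397, 10440, 8545 and 3074 FPKM in control libraries 1 to 4. Of the 16 genes of the list 15 were in the table, 14 of 15 tested were above 0, 4 rose, and none was at 0 in every library. Their mean log2(FPKM + 1) was 6.71, 6.29, 6.55 and 5.80 in CKO libraries 1 to 4, against 5.67, 5.77, 5.46 and 4.43 in control libraries 1 to 4. By that mean, library 4 was lowest in each group. The sum was highest in CKO library 4. The part of red cells in Slc25a37 and in the other carriers was not tested. Slc25a1, the citrate carrier, was the only mitochondrial member with groups apart. It is 2.86% of the class, against 12.7% of all genes apart and higher in CKO. Slc25a1 had 22.1 to 33.5 FPKM in CKO and 20.6 to 22.04 FPKM in control (log2 fold change 0.26, limma adjusted p = 0.415). With equal totals its value was -0.20. Slc25a30 had 3.54, 3.38, 3.81 and 0.136 FPKM in CKO libraries 1 to 4, against 3.67, 4.26, 2.92 and 2.88 FPKM in control libraries 1 to 4; CKO library 4 alone was low, and without it the log2 fold change was 0.06.

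**Figure D4:**
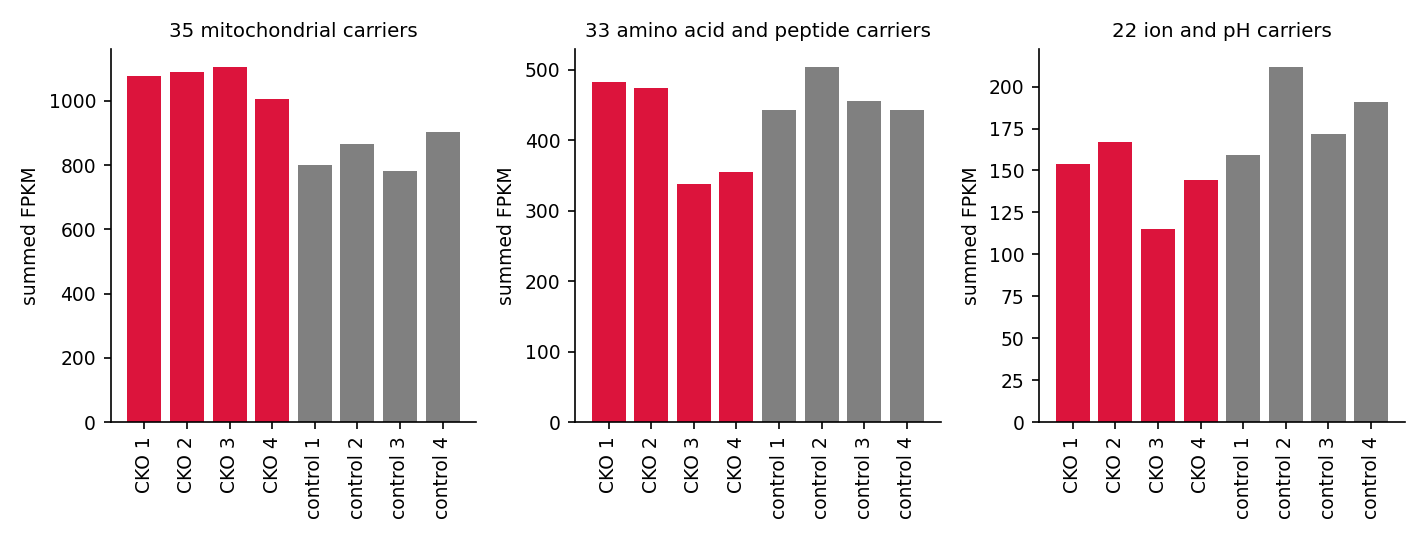
Summed FPKM (y axis from 0) of the mitochondrial, amino acid and ion carrier members in each CKO (red) and control (grey) library. The mitochondrial sums are 1006 to 1105 FPKM in CKO and 782 to 902 FPKM in control, while the other 2 classes overlap between groups.

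Carriers placed by family in the endoplasmic reticulum and Golgi apparatus, which include those of nucleotide sugars and others of different or unknown substrates, were below 0 in 18 of 21 members, and none passed. The class median was -0.25, or 0.01 without CKO libraries 3 and 4. Slc35a2, which brings in UDP-galactose, had 8.28, 9.78, 4.32 and 10.4 FPKM in CKO libraries 1 to 4, against 9.52, 10.4, 13.1 and 16.4 FPKM in control libraries 1 to 4. CKO libraries 2 and 4 lay inside the control range (log2 fold change -0.57, limma adjusted p = 0.234). Slc35d1, a carrier of UDP-glucuronic acid and UDP-N-acetylgalactosamine whose loss in mice shortens the skeleton, was chosen after its values were seen and had 3.26, 2.19, 1.45 and 1.04 FPKM in CKO libraries 1 to 4, against 1.91, 3.06, 2.61 and 2.79 FPKM in control libraries 1 to 4. Its groups overlapped (log2 fold change -0.31, 95% interval -0.86 to 0.24). Slc35b4, which carries UDP-xylose, and Slc35a3, which carries UDP-N-acetylglucosamine, were likewise chosen and averaged 3.22 FPKM in CKO and 4.58 FPKM in control (-0.44) and 6.74 FPKM in CKO and 6.94 FPKM in control (-0.21).

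The most abundant member of the class, Slc35b1, did not share the lean, at 36.7 ± 4.87 FPKM in CKO and 34.03 ± 6.79 FPKM in control (SD, n = 4 each) (log2 fold change 0.12), but with equal totals it was -0.34. Slc35c2 was the only one with groups apart, and it was higher in CKO (4.76% of the class, against 12.7% of all genes). It had 17.1, 20.96, 19.6 and 30.4 FPKM in CKO libraries 1 to 4, against 16.1, 16.1, 16.3 and 15.5 FPKM in control libraries 1 to 4, with CKO library 4 above the rest (log2 fold change 0.41, limma adjusted p = 0.25), and with equal totals its value was -0.04. Slc35d3 ranged over 0.421 to 3.25 FPKM in CKO and 0.365 to 1.67 FPKM in control (log2 fold change 0.47).

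Carriers of organic acids, lipids and organic cations were below 0 in 17 of 23 members, and none passed. Slc16a1 (MCT1), a lactate carrier, had 32.4, 25.1, 19.9 and 11.4 FPKM in CKO libraries 1 to 4, against 14.5, 15.5, 16.2 and 12.3 FPKM in control libraries 1 to 4. CKO libraries 1 to 3 were above all controls and CKO library 4 below them (log2 fold change 0.49, limma adjusted p = 0.3197); without CKO library 4 the log2 fold change was 0.76 with a limma adjusted p of 0.0342. Slc22a4, which imports ergothioneine and is strong in red cell precursors, averaged 8.04 ± 1.85 FPKM in CKO and 4.898 ± 1.52 FPKM in control (SD, n = 4 each) (log2 fold change 0.63, limma adjusted p = 0.148), and Slc22a17 14.96 ± 5.79 FPKM in CKO and 22.7 ± 8.31 FPKM in control (SD, n = 4 each) (-0.54). Slc44a1, a choline carrier, and Slc13a5, the citrate importer linked to bone mineral in mice, were chosen after their values were seen. Slc44a1 had 31.2, 29.03, 24.99 and 18.6 FPKM in CKO libraries 1 to 4, against 30.8, 44.5, 47.4 and 46.7 FPKM in control libraries 1 to 4 (log2 fold change -0.69, limma adjusted p = 0.0982). CKO library 1 exceeded control library 1 by a small margin, and the other CKO values were below all controls. Slc13a5 had 18.5, 22.5, 8.42 and 35.7 FPKM in CKO libraries 1 to 4, against 22.7, 19.03, 27.97 and 35.4 FPKM in control libraries 1 to 4, and the highest values of both groups, in library 4 of each, were close (log2 fold change -0.41).

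Vitamin, nucleoside and heme carriers were below 0 in 9 of 12 members, and none passed. Slc23a2 (SVCT2), which imports ascorbic acid, the vitamin that collagen hydroxylases need, had 4.08, 3.93, 2.69 and 1.36 FPKM in CKO libraries 1 to 4, against 4.33, 6.38, 6.54 and 4.57 FPKM in control libraries 1 to 4. Every CKO library was below every control library (log2 fold change -0.73, SE 0.28, limma adjusted p = 0.133). Slc29a1 (ENT1), the equilibrative nucleoside carrier and the most abundant member outside mitochondria, had 96.2, 87.6, 82.8 and 152 FPKM in CKO libraries 1 to 4, against 101, 126, 119.7 and 116 FPKM in control libraries 1 to 4. CKO libraries 1 to 3 were below every control library and CKO library 4 above them all, for a log2 fold change of -0.18. The 5 urea and vesicular carriers had no call and a median of -0.25. The 4 members named after a carrier without being one had no call either; among them Slc9a3r1 (NHERF1), a scaffold for membrane proteins, averaged 18.7 ± 4.75 FPKM in CKO and 13.3 ± 5.49 FPKM in control (SD, n = 4 each) (log2 fold change 0.51).

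The fold changes of members followed transcript length, as those of all genes did. In the quartile with the shortest transcripts (204 to 1962 bases) the median log2 fold change was 0.30 for 21 members and 0.55 for all genes. In the longest quartile (4616 to 106824 bases) it was -0.44 for 47 members and -0.33 for all genes. Mitochondrial carriers had a median transcript of 2614 bases and ion and pH carriers of 4598 bases, against 3436 bases for all members. With the trend against length removed, the member median was -0.06 and that of all genes 0.06, and no gene passed by limma, with 1941 genes and 21 members at an unadjusted p under 0.05. Slc39a14 then had a log2 fold change of -0.88 and Slc38a5 of 0.91.

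**Figure D5:**
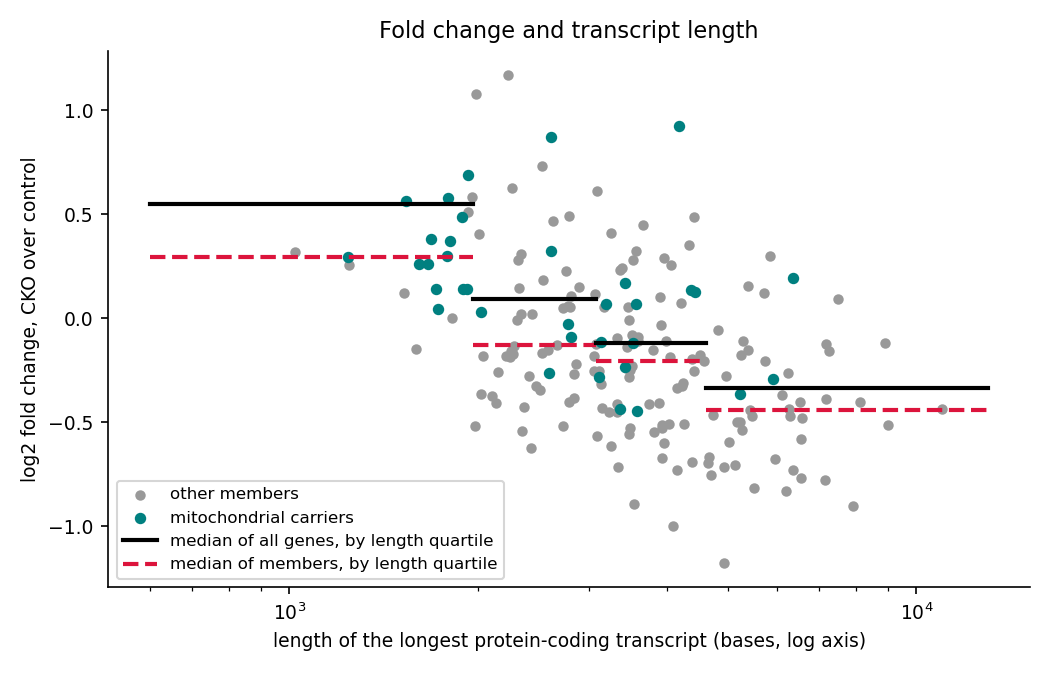
Log2 fold change (y axis, CKO over control) of each member against the length of its longest protein-coding transcript (x axis, log scale), with mitochondrial carriers in teal. Lines give the medians of all genes (black) and of members (red, dashed) in the 4 length quartiles, which fall from 0.55 to -0.33 and from 0.30 to -0.44.

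Members were more variable among CKO than among control libraries. The SD of log2(FPKM + 1) was larger in CKO for 151 of 195 members, as for 10013 of 12748 genes, with a median of 0.42 in CKO and 0.24 in control. The lowest value of the 8 was in CKO library 4 for 84 members and in CKO library 3 for 58. All 195 members were protein-coding genes, in 46 families, and 163 of them had 1 FPKM or more in all 8 libraries. By mean level over the 8 libraries, 9 were at 50 FPKM or more and 79 under 5 FPKM. Just inside the filter, with exactly 4 libraries at 1 FPKM or more, were 9 members, among them Slc35g2 (0.931 FPKM in CKO and 1.13 FPKM in control on average). Just outside it, with 3 such libraries, was for example Slc6a15 (0.433 FPKM in CKO and 1.08 FPKM in control). A total of 38 Slc symbols fell below the filter and were not tested.

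Transporters of solute carrier families that bear other symbols were counted in the same fit. Of 50 listed, 45 were in the table and 38 were tested, of which 1 rose, 1 fell and 36 did not pass. That is 5.26% called, close to the 4.53% of all genes. The median log2 fold change was -0.06. Groups were apart and lower in 7 of 38 (18.4%, against 6.0% of all genes). Mpc2, a subunit of the mitochondrial pyruvate carrier, had 48.9, 48.05, 69.4 and 60.9 FPKM in CKO libraries 1 to 4, against 29.5, 25.2, 22.3 and 33.7 FPKM in control libraries 1 to 4. Every CKO library was above every control library (log2 fold change 1.01, SE 0.21, limma adjusted p = 0.0388), and the call held in 7 of 21 other settings. Its partner subunit Mpc1 had 34.8, 33.9, 80.8 and 19.5 FPKM in CKO libraries 1 to 4, against 16.8, 20.8, 23.8 and 24.96 FPKM in control libraries 1 to 4, with CKO library 4 inside the control range (log2 fold change 0.77, limma adjusted p = 0.216). Ank, which exports pyrophosphate and so restrains mineral growth, fell, with 69.9, 42.3, 44.8 and 36.05 FPKM in CKO libraries 1 to 4, against 89.02, 136, 152 and 94.8 FPKM in control libraries 1 to 4 (log2 fold change -1.28, limma adjusted p = 0.0388). Its groups did not overlap, and the call held in 8 of 21 other settings.

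The authors' deposited table gave a log2 fold change of the same sign as the limma value for 191 of 195 members. In the authors' deposited table, 38 members had a p-value under 0.05 and a log2 fold change below 0, and 11 had one above 0. Over all 12748 genes tested, these counts were 1559 below 0 and 2277 above 0. Both directions together were 25.1% of members against 30.1% of all genes tested. In the authors' deposited table the log2 fold change was -1.21 for Slc39a14, 1.09 for Slc38a5 and 1.79 for Slc6a13.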

How the data were processed

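The data are 1 table with FPKM for each of 8 libraries, computed by the authors, per the file headers, together with the authors' deposited p-value and log2 fold change per gene, whose test no source here names. The submitters' processing notes list, without roles, DESeq2 1.20.0, featureCounts 1.5.0-p3, HISAT2 2.0.5, CASAVA 1.8 and fastp, and the GRCm38 genome. Per the labels' protocols, TRIzol was used for RNA and the NEBNext Ultra RNA kit for libraries. No strand setting is given, so reads of overlapping antisense genes cannot be told apart. FPKM times exon length did not fall on whole steps (smallest mean distance from a whole number 0.215, against 0.25 by chance), so depth is unknown and no counting interval was given. No libraries held identical values.

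Genes with 1 FPKM or more in at least 4 of 8 libraries were kept (12748). Genotype was the single term of a limma 3.58.1 fit (R 4.3.3) to log2(FPKM + 1), with an intensity trend in eBayes, and p-values were adjusted by Benjamini-Hochberg over all genes kept. The fit was tested on simulated data. The labels do not say whether replicate numbers pair libraries, and this fit used no pairing. Coordinates and transcript lengths came from GENCODE M21 (GRCm38), which matched all 195 members by identifier. Classes follow family number, so a class can hold members that carry other substrates. Named members are those called, the 8 largest and 8 smallest log2 fold changes among members whose groups do not overlap and whose higher group averages 5 FPKM or more, the 8 most abundant, and in each family of 5 or more the most abundant and the largest and smallest log2 fold change. Of these, 2 are not reported here. Any other member is marked in the text as picked later. The members and lists were chosen with earlier results of these data known. Other settings tried were filters, pseudocounts, scalings, removal of the length trend, library weights, covariates, a replicate block and leaving out libraries.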

Additional observations from a re-analysis of the deposited data

Results flagged for a closer look

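Among 92 groups of 4 libraries, 1 CKO and 1 control for each of 46 members taken by the naming rule, 2 had a library far from the other 3, where chance gives about 1 in 20. Slc25a30 was at 0.136 FPKM in CKO library 4, while CKO libraries 1 to 3 had 3.38 to 3.81 FPKM. Slc25a4 was at 151 FPKM in control library 4, against 63.7 to 76.5 FPKM in the other control libraries. Skeletal muscle markers were also highest among the controls there (3448 FPKM). In CKO, Slc25a4 and these markers were both highest in library 4 and both lowest in library 3. CKO library 3 had 115 FPKM of Slc25a4 with muscle markers at 152 FPKM, and control library 3 had 69.9 FPKM with 1296 FPKM. The part of muscle in these values was not tested.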

How the results depend on the processing

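The count of genes called was 578 as reported, and it moved with nearly every choice. It was 381 with no filter, 837 with a filter at 5 FPKM, 478 with a pseudocount of 0.1, 358 with quantile normalization, 6005 with array weights, 1671 with the skeletal muscle covariate, and 0 with median-of-ratios scaling, equal FPKM totals, the length trend removed, the marrow covariate, the Y-linked covariate and, chosen after the data were seen, without CKO libraries 3 and 4. At an unadjusted p under 0.05, limma gave 3426, 3934, 1941, 1944, 2202 and 3642 genes in those 6 fits. Members called higher numbered 2 as reported and 1 with the filter at 5 FPKM, 33 with array weights, 4 with the muscle covariate and 0 in those 6 fits. Members called lower numbered 1 as reported and 2 with quantile normalization, 46 with array weights, 12 with the muscle covariate and 0 in those 6 fits. Leaving out 1 library at a time gave 0 to 1885 genes called, 0 to 7 members higher and 0 to 7 members lower. The counts were above 0 without CKO library 4 (1885, 7 and 7) and without control library 1 (815, 2 and 2) and 0 in the other 6 fits. The cause was not tested.

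With replicate number as a block, the count was 274 genes, 1 member higher (Slc6a13) and 1 lower. Deviations of same-numbered libraries correlated at -0.03, 0.23, -0.26 and 0.43. By these deviations the best matches of CKO libraries 1 to 4 were control libraries 3, 2, 1 and 4. Such values cannot tell whether the numbers pair libraries, and the labels do not say. With equal FPKM totals the median of all genes was -0.37, against 0.01 as reported, and relative to that the member median was -0.17, against -0.19 as reported.

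Slc39a14 and Slc38a5 had the same direction in all 21 settings. Slc6a13 had the same direction in the 20 that tested it. It passed the filter only through its CKO values, which fixed its direction, so that is no check. Some named members that were not called changed sign, with these log2 fold changes. With the length trend removed they were Slc12a9 0.018, Slc25a1 -0.031, Slc25a3 -0.054, Slc25a5 -0.25, Slc35b1 -0.24, Slc38a10 0.056 and Slc9b2 0.23. With the marrow marker covariate they were Slc12a9 0.13, Slc22a17 0.13, Slc25a37 -0.30, Slc25a5 -0.042, Slc29a1 0.0080, Slc2a3 -0.65, Slc30a5 -0.19, Slc39a8 -0.19, Slc9a3r1 -0.35 and Slc9b2 0.21. With the Y-linked covariate they were Slc12a9 0.31, Slc22a17 0.27, Slc25a5 -0.055, Slc29a1 0.14, Slc2a3 -0.067, Slc30a5 -0.25, Slc39a8 -0.12 and Slc9b2 0.14. With equal FPKM totals they were Slc25a1 -0.20, Slc25a3 -0.21, Slc25a39 -0.088, Slc25a5 -0.18, Slc2a3 -0.13, Slc30a5 -0.40, Slc35b1 -0.34, Slc35c2 -0.044, Slc39a7 -0.32, Slc39a8 -0.11 and Slc66a2 -0.038. With quantile normalization they were Slc25a3 -0.43, Slc25a39 -0.11, Slc25a5 -0.40, Slc30a5 -0.091, Slc35b1 -0.22 and Slc39a7 -0.34. With array weights they were Slc25a30 0.086 and Slc35b1 -0.022. Without CKO libraries 3 and 4 they were Slc25a30 0.020. With the skeletal muscle covariate they were Slc35b1 -0.023, Slc39a7 -0.12 and Slc9b2 0.012. Ranges on leaving out 1 library at a time that crossed 0 were Slc12a9 -0.36 to 0.17, Slc25a30 -0.64 to 0.056, Slc2a3 -0.073 to 0.67, Slc30a5 -0.038 to 0.21, Slc35b1 -0.015 to 0.20, Slc39a7 -0.14 to 0.39 and Slc9b2 -0.26 to 0.088. FPKM gives no depth, so low members carry an unknown counting error.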
